A study of Mus musculus with 10 samples.

Results

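Lipolysis in visceral white adipose tissue (WAT) was followed through 9 genes for its enzymes, their regulators and their beta-adrenergic control, out of 47937 genes listed in each library. The genes were listed by name, with earlier results of these data known: Pnpla2, Lipe, Mgll, Abhd5, G0s2, Hilpda, Adrb3, Pde3b and Aqp7. The tissue came from C57BL/6 mice of 2 genotypes, Mof+/+ and Mof+/-, where Mof (Kat8) encodes a histone H4 lysine 16 acetyltransferase and the Mof+/- mice carry the heterozygous loss in the whole animal. Mice on the standard diet (SD) were 8 weeks old, with 3 biological replicates per genotype, and mice on the high-fat diet (HFD) were 27 weeks old with 20 weeks of HFD, with 2 biological replicates per genotype. The text of the paper gives another length of HFD feeding. By the sample descriptions diet and age changed together, so a difference between the diets cannot be told apart from a difference between the ages.

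Fat cells store triglyceride in a lipid droplet and release it as fatty acids and glycerol in 3 steps. Pnpla2 encodes adipose triglyceride lipase (ATGL), Lipe hormone-sensitive lipase and Mgll monoglyceride lipase, which act in this order. Abhd5 encodes the coactivator of ATGL, and G0s2 and Hilpda encode its inhibitors. Noradrenaline acts through the beta-3 adrenergic receptor (Adrb3), which raises cAMP and activates protein kinase A (PKA), whereas the phosphodiesterase Pde3b degrades cAMP and mediates much of the anti-lipolytic action of insulin. Aqp7 encodes the glycerol channel of adipocytes.

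All 9 are protein-coding genes on autosomes. By the GENCODE M21 annotation of GRCm38, Pnpla2 lies at chr7:141455198-141460743, Lipe at chr7:25379527-25398710 and Mgll at chr6:88724412-88828360. Abhd5 lies at chr9:122351608-122381524, G0s2 at chr1:193272161-193273217 and Hilpda at chr6:29272488-29275446. The genes of the adrenergic branch and of glycerol release lie at chr8:27225776-27250616 for Adrb3, chr7:114415281-114539251 for Pde3b and chr4:41033074-41048139 for Aqp7. Merged exons add up to 871 bases for G0s2 and 1103 bases for Hilpda, the shortest of the 9, and to 9114 bases for Pde3b, the longest.

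The promoters of ATGL and of the genes for the 3 proteins that bind it are shown because Hilpda rose on HFD in Mof+/+ WAT while the others did not pass the test. The sequences are the 250 bases before the RefSeq transcription start on GRCm38.p6, in the direction of transcription. Capitals mark TGACG, the half-site of the cAMP response element, and ACGTG or GCGTG, the core of the hypoxia response element, searched on both strands.
Pnpla2, chr7:141454938-141455187, + strand: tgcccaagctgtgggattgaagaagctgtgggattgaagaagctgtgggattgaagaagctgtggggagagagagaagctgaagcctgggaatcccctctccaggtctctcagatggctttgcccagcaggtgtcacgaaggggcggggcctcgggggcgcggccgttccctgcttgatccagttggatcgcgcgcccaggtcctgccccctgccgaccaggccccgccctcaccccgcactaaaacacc
Abhd5, chr9:122351366-122351615, + strand: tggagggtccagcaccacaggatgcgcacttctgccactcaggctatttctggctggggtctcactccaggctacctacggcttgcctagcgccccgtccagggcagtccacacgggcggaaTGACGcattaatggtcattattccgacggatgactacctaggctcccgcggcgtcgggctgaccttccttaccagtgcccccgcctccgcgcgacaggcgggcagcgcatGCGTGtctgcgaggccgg
G0s2, chr1:193273189-193273438, - strand: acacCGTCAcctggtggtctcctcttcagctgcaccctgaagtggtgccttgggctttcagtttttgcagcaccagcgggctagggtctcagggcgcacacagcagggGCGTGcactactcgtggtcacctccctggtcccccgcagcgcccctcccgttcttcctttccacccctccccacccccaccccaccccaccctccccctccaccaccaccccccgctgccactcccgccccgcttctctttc
Hilpda, chr6:29272238-29272487, + strand: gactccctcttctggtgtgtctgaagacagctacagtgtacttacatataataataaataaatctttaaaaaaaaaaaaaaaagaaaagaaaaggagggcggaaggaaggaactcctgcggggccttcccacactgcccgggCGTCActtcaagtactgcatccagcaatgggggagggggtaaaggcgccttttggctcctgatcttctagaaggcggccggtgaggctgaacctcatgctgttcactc
Abhd5, G0s2 and Hilpda each held 1 cAMP half-site, at -128, -246 and -108 from the listed start, and Pnpla2 held none. A hypoxia core was found at -18 in Abhd5 and at -142 in G0s2, and the one of Hilpda lay at +28, past the stretch shown. Of 32851 RefSeq promoter windows of the same 300 bases (250 before and 50 after the start), 20.8% held TGACG and 43.8% held a hypoxia core. Entries were matched for 7 of the 9 genes, all but Adrb3 and Pde3b. Of the 3 not shown, Lipe held 3 matches to the hypoxia core and Mgll 4, counting overlapping matches on both strands, Aqp7 held none, and none of these 3 held a cAMP half-site. The start of the Lipe entry used, 1 of 2 listed, lies 2723 bases from the annotated start of the gene. The matches at -155 and -154 in Lipe, and at -44 and -43 in Mgll, lie on 1 palindromic CACGTG each. These are matches of letters and not measured binding sites.

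Libraries were compared as labelled, with exceptions that bear on the values. The totals of counts on genes ranged from 1044355 to 17171947. Kat8 was at 20.4 to 21.5 CPM (a gene's counts scaled by the total counts on genes of its library) in SD Mof+/+ and at 12.2, 18.8 and 11.5 CPM in SD Mof+/- libraries, which did not overlap. On HFD it was at 18.1 and 19.2 CPM in Mof+/+ and at 20.1 and 10.5 CPM in Mof+/-, so the first library labelled HFD Mof+/- was not below the controls (21 counts, 95% exact interval 12.4 to 30.7 CPM). This library was also the shallowest, with 26.9% of its counts from the mitochondrial genome and 81207 CPM from 16 skeletal muscle markers, which reached at most 136 CPM in the SD and HFD Mof+/+ libraries and 1960 CPM in the second HFD Mof+/- library. The column headings inside the files give the third SD libraries the opposite genotype. Xist was at 46.1 to 139 CPM in the 3 SD Mof+/- libraries and listed at 0 in the other 7, and the Y-linked Ddx3y showed the converse, so sex cannot be told apart from genotype on SD or from diet in Mof+/- mice, and it enters the interaction of both. The methods of the study describe male mice.

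Adipocyte markers were detected in every library, but at different levels. The sum of 9 adipocyte markers that are not among the lipolysis genes was 29129 to 34995 CPM in SD Mof+/+, 45320 to 67517 in SD Mof+/-, 23248 and 26433 in HFD Mof+/+, and 14852 and 39358 in HFD Mof+/- libraries. Macrophage markers summed to 5154 and 6989 CPM in HFD Mof+/+ against 1123 to 1924 in SD Mof+/+, and endothelial markers to 168 to 258 CPM in SD Mof+/- against 914 to 2183 in SD Mof+/+. Myelin and glial markers summed to 113, 1105 and 157 CPM in SD Mof+/+, 35.5 to 56.6 in SD Mof+/- and 51.3 and 53.1 in HFD Mof+/+. Against SD Mof+/+, 3 of the 5 tested passed the edgeR test described below as lower in both of these groups, and their part was not tested. In bulk tissue, fewer adipocytes and less RNA per adipocyte cannot be told apart.

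**Figure D1:**
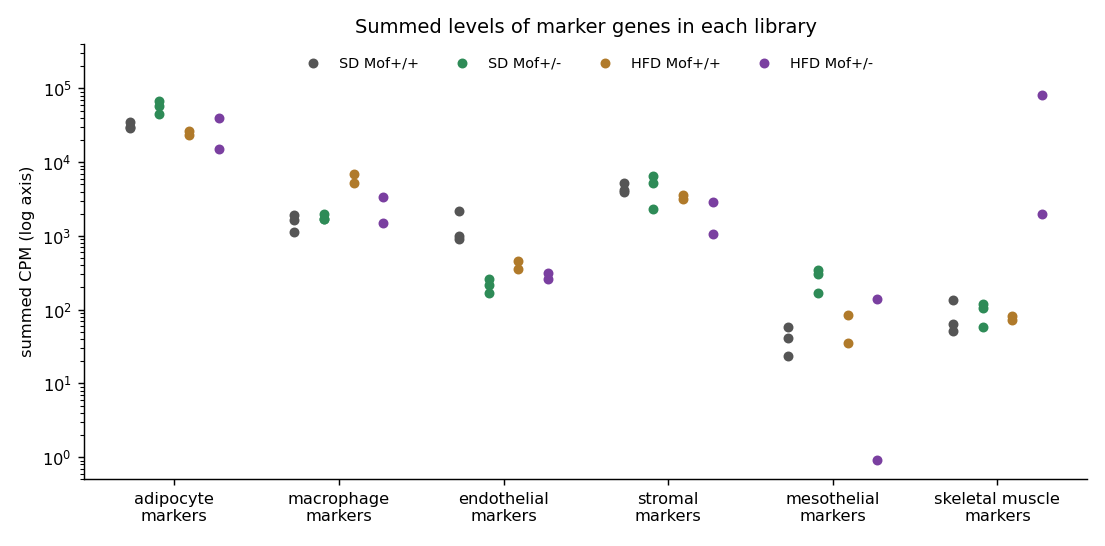
Summed CPM (log axis) of 6 lists of marker genes, 1 point per library, coloured by group. Adipocyte markers were highest in the 3 SD Mof+/- libraries, macrophage markers in the 2 HFD Mof+/+ libraries and skeletal muscle markers in the 2 HFD Mof+/- libraries, at 81207 and 1960 CPM.

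Per transcript length, ATGL and its inhibitor G0s2 were the most abundant of the 9 mRNAs and Hilpda the least in SD Mof+/+ WAT. In TPM (counts per kilobase of merged exons scaled to a fixed total), Pnpla2 was at 1832 ± 582 (SD of replicates, n = 3) and G0s2 at 1323 ± 550. Lipe and Mgll followed at 705 ± 135 and 687 ± 133 TPM and Adrb3 at 457 ± 47.9 TPM. Aqp7 (158 ± 44.3), Pde3b (98.9 ± 38.8) and Abhd5 (82.2 ± 27.1) were lower, and Hilpda was at 22.5 ± 8.35 TPM. Among neighbours in this order, the replicates of Mgll and Adrb3, of Adrb3 and Aqp7, and of Abhd5 and Hilpda did not overlap, whereas those of the other 5 neighbouring pairs did. The coactivator Abhd5 therefore stood at a small fraction of its lipase, with a ratio of TPM of 0.0477 ± 0.0231 to Pnpla2.

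The order changed on HFD in Mof+/+ mice. Pnpla2 and G0s2 still led, with means of 904 and 865 TPM, but Mgll, at 585 and 638 TPM, lay above Lipe, at 333 and 459 TPM, without overlap. Adrb3 was at 75.8 and 141 TPM, which overlapped Aqp7 at 97.5 and 119 TPM. Hilpda, at 57.2 and 62.3 TPM, overlapped Abhd5 at 58.1 and 61.9 TPM, and Pde3b was now the lowest of the 9 at 22.3 and 28.7 TPM. These levels were not corrected for the trend with transcript length, which differed between these diets as given below. Merged exons add up to 1103 bases for Hilpda, 5956 for Abhd5 and 9114 for Pde3b. In SD Mof+/- libraries the order was that of SD Mof+/+ except that Abhd5 and Pde3b, whose replicates overlapped, changed places. In HFD Mof+/- libraries 7 of the 8 neighbouring pairs overlapped, all but Mgll and Aqp7.

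**Figure D2:**
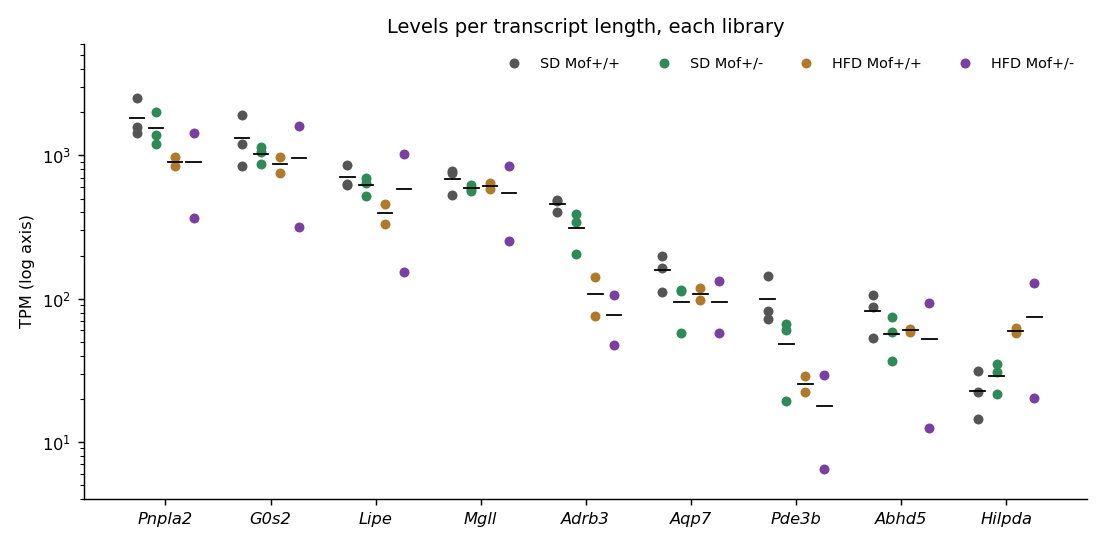
TPM (log axis) of the 9 lipolysis genes in each library, ordered by their mean in SD Mof+/+, with points for libraries and short lines for group means. The genes span from 22.5 TPM for Hilpda to 1832 TPM for Pnpla2 in SD Mof+/+, and Adrb3 and Pde3b lie lower and Hilpda higher in HFD Mof+/+.

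The comparison of diets in Mof+/+ mice asked how the lipolysis genes differ between SD-fed and HFD-fed control WAT. Adrb3 and Pde3b, which act in opposite directions on cAMP, both fell, and Hilpda rose. These 3 of the 9 genes passed an adjusted p of 0.05 in edgeR's quasi-likelihood test with Benjamini-Hochberg adjustment over all 14939 genes tested, against a background of 9.75% of those genes. In 5 of 9 genes the CPM of the groups did not overlap, which was true of 49.1% of the genes tested. The median log2 fold change of the 9 was -0.38, beside -0.04 over all genes tested. Of 10 adipocyte markers, Adrb3 included, 7 were lower and 3 higher on HFD, with 5 passing as lower and 1 as higher. Their median log2 fold change was -1.05, and the part of adipocyte content in these differences was not tested.

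Adrb3 was at 482, 556 and 611 CPM in SD Mof+/+ and at 181 and 98.5 CPM in HFD Mof+/+ libraries. Every SD library lay above both HFD libraries, and the fitted level on HFD was 27.7% of that on SD, a log2 fold change of -1.85 ± 0.30 (SE; edgeR adjusted p = 0.0154). Adrb1, the beta-1 adrenergic receptor, was at 0 to 5.60 CPM over all 10 libraries and did not pass the test (log2 fold change 0.36 ± 1.45).

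Pde3b was at 232, 450 and 274 CPM in SD Mof+/+ and at 99.3 and 78.1 CPM in HFD Mof+/+ libraries. The groups did not overlap, and the fitted level on HFD was 30.2% of that on SD (log2 fold change -1.73 ± 0.33, edgeR adjusted p = 0.0262). Hilpda moved the other way, from 5.62, 11.8 and 9.03 CPM on SD to 26.1 and 24.3 CPM on HFD, with no overlap. Its fitted rise was 3.11-fold (log2 fold change 1.64 ± 0.38, edgeR adjusted p = 0.0437).

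The 3 lipases did not pass the edgeR test. Pnpla2 was at 1531, 2597 and 1748 CPM on SD and at 1114 and 973 CPM on HFD, and Lipe at 1310, 1744 and 1362 CPM on SD and at 1027 and 755 CPM on HFD. Both were lower in each HFD library than in any SD library, but their log2 fold changes of -0.79 ± 0.28 and -0.60 ± 0.24 did not pass the edgeR test (adjusted p = 0.122 and 0.155), although both passed in DESeq2 (adjusted p = 0.0172 and 0.0339). Mgll, at 1360, 1351 and 999 CPM on SD and 1230 and 1143 CPM on HFD, lay within the SD range (log2 fold change 0.06 ± 0.22, 95% interval -0.45 to 0.58).

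The coactivator, the other inhibitor and the glycerol channel overlapped between the diets. Abhd5 was at 225, 179 and 116 CPM on SD and 140 and 133 CPM on HFD, and G0s2 at 374, 576 and 269 CPM on SD and 322 and 254 CPM on HFD. Aqp7 was at 200, 160 and 116 CPM on SD and 127 and 106 CPM on HFD. Their log2 fold changes were -0.22 ± 0.28, -0.38 ± 0.34 and -0.32 ± 0.26, and edgeR's adjusted p-values were 0.661, 0.510 and 0.470.

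The ratios within a library do not depend on its scaling factor, but those of a short to a longer gene carry the trend with transcript length, given as the Spearman correlation over genes of length with log2 level relative to the mean of the libraries, which was 0.38 to 0.43 in SD Mof+/+ and -0.017 and 0.094 in HFD Mof+/+ libraries. Hilpda stood at 0.0122 ± 0.00206 of Pnpla2 in TPM on SD and at 0.0662 ± 0.00301 on HFD, a ratio of means of 5.43. The ratio of G0s2 to Pnpla2 was 0.717 ± 0.163 on SD and 0.954 ± 0.0661 on HFD, and that of Mgll to Lipe 0.984 ± 0.192 on SD and 1.57 ± 0.259 on HFD, both without overlap between the libraries. Lipe to Pnpla2 and Abhd5 to Pnpla2 overlapped between the diets. The share of other gene pairs whose ratios do not overlap was not computed for any comparison. In CPM, 49.1% of the genes tested did not overlap between these diets.

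The calls rested on few libraries, and the single HFD library left when the other is taken out was assumed to vary like the SD libraries. Adrb3, Pde3b and Hilpda kept their sign in 16 of 16 alternatives each, with log2 fold changes from -2.33 to -1.47, from -1.91 to -1.34 and from 1.04 to 1.92. They passed the test in 13, 11 and 9 of them. In this comparison, leaving out SD Mof+/+ library 3 and leaving out replicate 3 of both SD groups were the same fit. All 3 genes passed in that fit, and the counts above hold it under both settings. None of the 3 passed without the first SD Mof+/+ library (adjusted p = 0.0556, 0.0527 and 0.0833) or without the second HFD Mof+/+ library (0.150, 0.278 and 0.340), and Adrb3 alone passed without the first HFD Mof+/+ library (0.0297, against 0.129 for Pde3b and 0.251 for Hilpda). None passed when the libraries were grouped by the headings inside the files (0.286, 0.534 and 0.718).

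Transcript length moved with this comparison. Over genes, the Spearman correlation of log2 fold change with merged exon length was -0.33, and genes under 1500 bases had a median log2 fold change of 0.71, where that of the 11273 genes examined was 0.0019. Hilpda is among the short genes and Pde3b among the long ones. After correction of each library for its trend with length, Hilpda's log2 fold change was 1.04 and no longer passed (adjusted p = 0.161), whereas Pde3b (-1.34, adjusted p = 0.0436) and Adrb3 (-1.89, adjusted p = 0.0157) did. G0s2, the shortest of the 9, was then at -1.15 (adjusted p = 0.141) and Pnpla2 at -0.87 (adjusted p = 0.101), so G0s2 was lower relative to Pnpla2 on HFD after the correction, opposite to the uncorrected ratio.

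**Figure D3:**
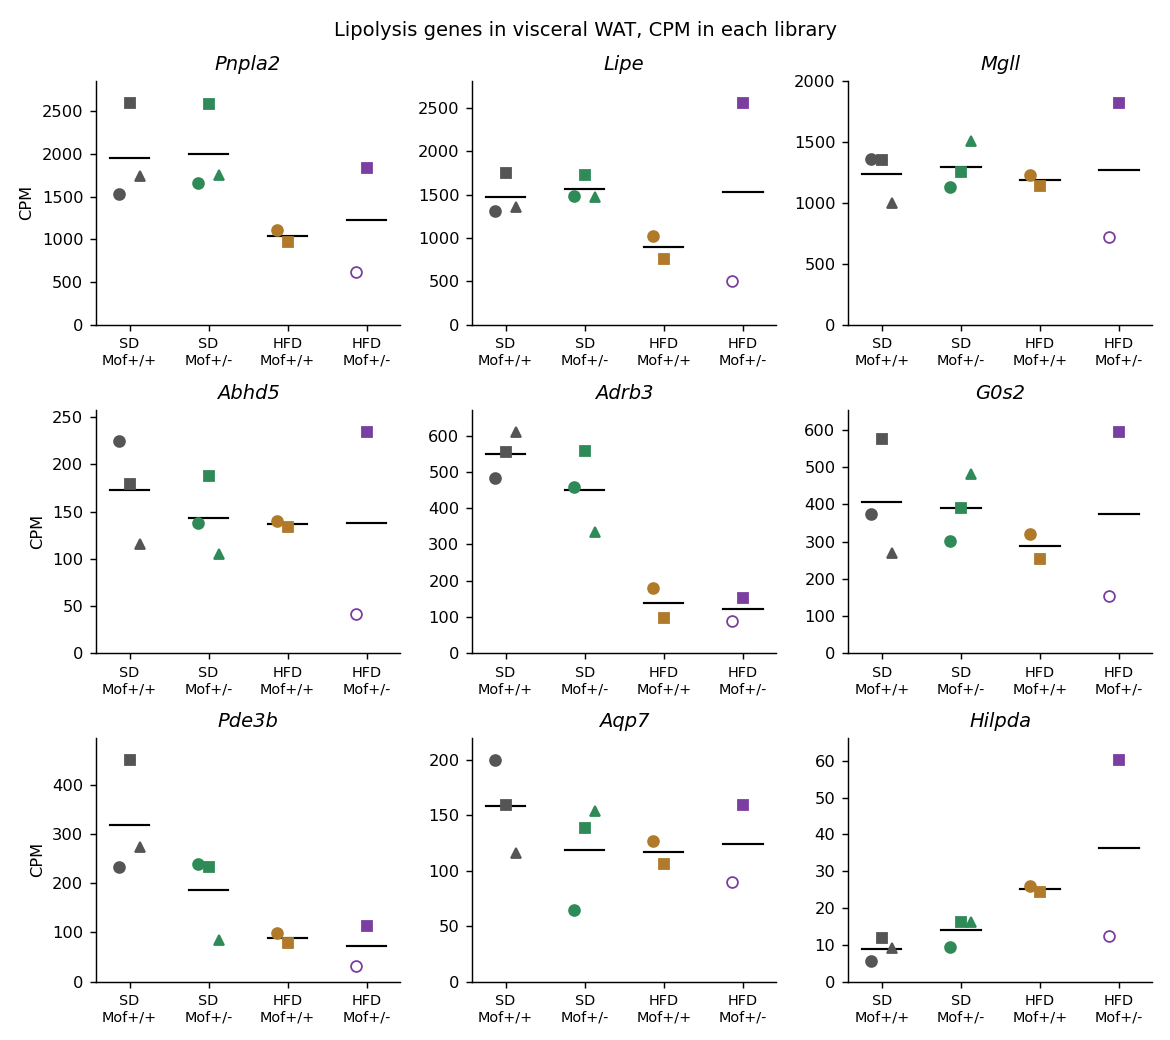
CPM of the 9 lipolysis genes in each library on linear axes from 0, with circles, squares and triangles for replicates 1, 2 and 3, horizontal lines for group means and an open circle for the first HFD Mof+/- library. Adrb3 lies at 482 to 611 CPM in SD Mof+/+ and at or below 181 CPM in all 4 HFD libraries, and the 2 HFD Mof+/- libraries lie far apart for the lipases.

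In Mof+/- mice, none of the 9 genes passed the test between the diets. With edgeR, 0% of the 13610 genes tested did so. At an unadjusted p under 0.05 there were 1166 genes, and DESeq2 called 402 genes, Adrb3 among them (adjusted p = 0.00104). Adrb3 was at 457, 558 and 335 CPM on SD and at 89.1 and 152 CPM on HFD, with no overlap, which held for 1 of the 9 genes and for 27.6% of the genes tested. Its log2 fold change of -1.90 ± 0.46 (edgeR adjusted p = 0.294) lay beside the -1.85 ± 0.30 of Mof+/+ mice, and over the alternatives it ranged from -2.23 to -0.75. Without the second HFD Mof+/- library it was -2.23 (adjusted p = 0.0421), but the HFD group is then the first library alone, which holds the muscle and mitochondrial RNA, and the spread comes from the SD libraries.

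Pde3b and Hilpda overlapped between the diets in Mof+/- WAT. Pde3b was at 239, 232 and 84.2 CPM on SD and at 32.6 and 114 CPM on HFD (log2 fold change -1.35 ± 0.63, adjusted p = 0.604). Hilpda was at 9.43, 16.3 and 16.2 CPM on SD and at 12.4 and 60.2 CPM on HFD (1.33 ± 0.74, adjusted p = 0.670). The first HFD library of the pair was the low one for both genes. Its Hilpda level rests on 13 counts, with a 95% exact interval of 6.63 to 21.3 CPM that covers counting error only.

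Of the remaining genes, Pnpla2 had a log2 fold change of -0.75 ± 0.65 between the diets in Mof+/- mice, and the other 5 lay between -0.13 and 0.03. Per 1000 adipocyte marker counts, 5 of the 9 genes were higher on HFD in Mof+/- without overlap (Lipe, Mgll, G0s2, Aqp7 and Hilpda) and none was lower, beside 32.7% of the genes tested that were higher without overlap. Adrb3 overlapped between the diets on this scale in Mof+/- (ratio of means 0.596), and did not in Mof+/+ (0.314). In Mof+/+ 4 genes were lower on HFD per marker count without overlap (Pnpla2, Lipe, Adrb3 and Pde3b), beside 15.9% of the genes tested, and Hilpda was higher, beside 31.4%. The markers themselves moved with diet, with Cfd at 22.6 to 29.0% of their counts in SD Mof+/- and 3.89 and 4.68% in HFD Mof+/-, and at 34.0 to 41.6% in SD Mof+/+ and 2.36 and 2.29% in HFD Mof+/+. Lep moved the other way, at 2.13 to 5.18% in SD Mof+/+ and 23.5 and 19.8% in HFD Mof+/+. In Mof+/- it took 1.52 to 1.84% on SD and 6.32 and 5.71% on HFD. The ratio of Hilpda to Pnpla2 in TPM did not overlap between the diets in Mof+/- mice either, at 0.0155 to 0.0253 on SD and 0.0551 and 0.0895 on HFD.

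The comparison of genotypes on SD asked how the lipolysis genes differ between Mof+/- and Mof+/+ WAT on this diet. Sex cannot be told apart from genotype here, by the Xist and Ddx3y levels above. None of the 9 genes passed the edgeR test, against 5.24% of the 13864 genes tested, none had an unadjusted p under 0.05, and DESeq2 called none of them. In none did the CPM of the genotypes fail to overlap, which was the case for 40.3% of the genes tested. The log2 fold changes of 7 genes were above 0 and those of 2 below, with a median of 0.31 beside -0.07 over all genes. Among the ratios of TPM, Hilpda to Pnpla2 was higher in SD Mof+/- without overlap, at 0.0155 to 0.0253 against 0.0101 to 0.0142, and the other 4 ratios overlapped. Library trends with transcript length also differed between these groups, at -0.45 to 0.14 against 0.38 to 0.43.

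The CPM of the lipases overlapped between the genotypes. Pnpla2 was at 1665, 2590 and 1751 CPM in SD Mof+/- libraries (log2 fold change 0.39 ± 0.31, 95% interval -0.31 to 1.08). Lipe was at 1484, 1729 and 1475 CPM (0.44 ± 0.25) and Mgll at 1129, 1254 and 1506 CPM (0.44 ± 0.27). The fitted values rest on library sizes scaled by TMM (the trimmed mean of M-values of edgeR), whereas CPM is per total count.

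Hilpda had the largest difference of the 9, a fitted ratio of 2.05 (log2 fold change 1.03 ± 0.49, edgeR adjusted p = 0.224), and after correction for transcript length its log2 fold change was -0.023 and that of G0s2 -0.97 (adjusted p = 0.145). Pde3b was the lowest (-0.45 ± 0.40), with Mof+/- library 3 at 84.2 CPM against 232 to 450 CPM in SD Mof+/+. Adrb3 (0.06 ± 0.25), Abhd5 at 138, 188 and 105 CPM (0.07 ± 0.31), G0s2 at 303, 389 and 480 CPM (0.31 ± 0.35) and Aqp7 at 64.3, 138 and 154 CPM (-0.04 ± 0.38) overlapped with Mof+/+. Over genes, log2 fold change and transcript length had a Spearman correlation of -0.47 in this comparison.

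The level per adipocyte marker gave other directions. Per 1000 counts on the 9 adipocyte markers, 8 of the 9 genes were lower in every SD Mof+/- library than in any SD Mof+/+ library, all but Hilpda. Of the 13864 genes tested, 59.5% were lower without overlap on this scale. Pnpla2 stood at 52.6, 74.2 and 58.8 per 1000 in Mof+/+ and at 36.7, 45.5 and 25.9 in Mof+/- libraries. Adrb3 was at 16.6, 15.9 and 20.5 in Mof+/+ and at 10.1, 9.80 and 4.96 in Mof+/-. Pde3b had the lowest ratio of means, 0.353, and Lipe the highest of the 8, 0.605.

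With library sizes set to the adipocyte marker counts, edgeR called 5 of the 9 genes lower, namely Mgll, Adrb3, G0s2, Pde3b and Aqp7. In either direction it called 4853 genes, 35.0% of all genes tested, with 75 of them higher. The markers are not a fixed standard. Fabp4 took 26.9 to 33.4% of the marker counts in SD Mof+/+ and 34.7 to 50.9% in SD Mof+/-, and the adipocyte markers Adipoq, Cidec, Fabp4 and Retn passed the test as higher in SD Mof+/-. Of the full list of 10 markers, Adrb3 included, 7 had a log2 fold change above 0 and 3 below, Thrsp (-0.27), Lep (-0.017) and Acvr1c (-0.016). The part of adipocyte content in these differences was not tested.

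**Figure D4:**
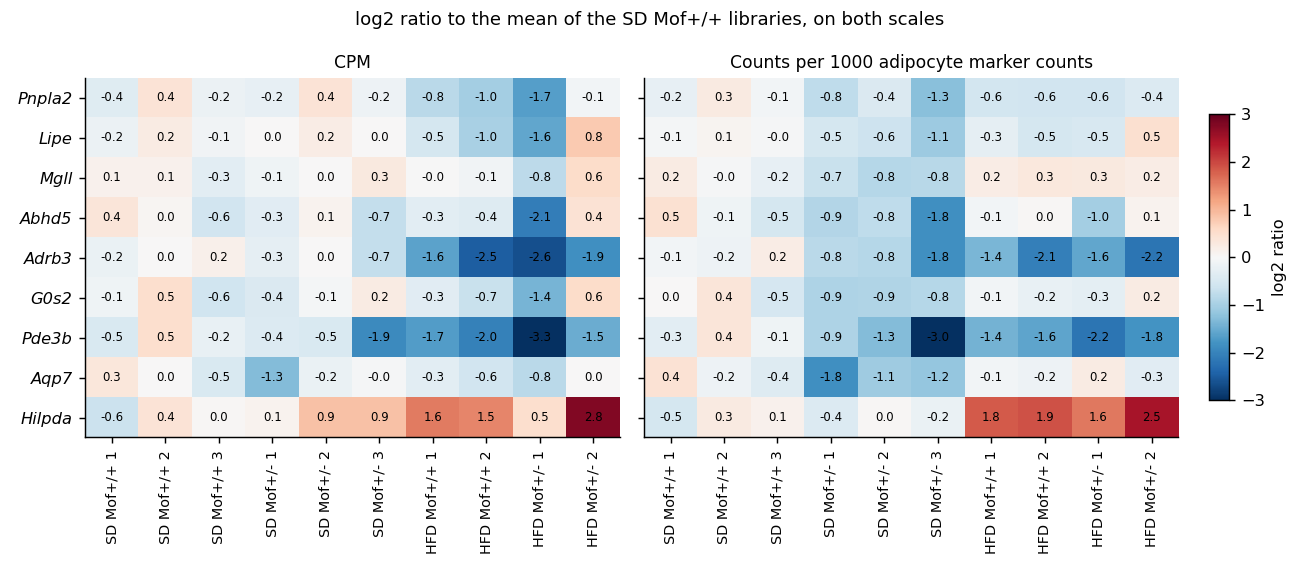
Heat maps of log2 ratios to the mean of the 3 SD Mof+/+ libraries for the 9 genes (rows) in the 10 libraries (columns), in CPM on the left and per 1000 adipocyte marker counts on the right, with red for higher and blue for lower. The SD Mof+/- columns turn blue on the right for 8 of the 9 genes, and the 2 HFD Mof+/- columns, unlike on the left, lie close together for Pnpla2 and Mgll.

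The genotypes on HFD were compared to see whether lipolysis genes differ after the diet. None of the 9 genes passed the test, nor did any other gene with edgeR (0% of 14120 tested), with 1732 genes at an unadjusted p under 0.05, none of them among the 9. DESeq2 called 209 genes and none of the 9. The CPM of the groups overlapped for all 9, whereas 54.4% of the genes tested did not overlap. All 9 fitted log2 fold changes were above 0, from 0.0044 for Pde3b to 1.03 for Lipe, with a median of 0.40 beside -0.24 over all genes.

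The 2 HFD Mof+/- libraries lay on opposite sides of the controls. Pnpla2 was at 619 and 1841 CPM, around the 973 and 1114 CPM of Mof+/+. Lipe was at 499 and 2553 CPM, and Mgll at 719 and 1821 CPM. The first library was below both controls for all 9 genes and the second above both for 8 of 9, the exception being Adrb3 at 89.1 and 152 CPM.

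The regulators had the same pattern. Abhd5 was at 41.2 and 235 CPM, G0s2 at 154 and 595 CPM and Aqp7 at 90.01 and 159 CPM in HFD Mof+/- libraries. Taking mitochondrial and skeletal muscle marker genes out of the totals moved the first library's Pnpla2 from 619 to 951 CPM and its Lipe from 499 to 767 CPM, both still below the Mof+/+ values computed the same way (1004 and 1163 for Pnpla2, 780 and 1072 for Lipe). Of the regulators, Abhd5, G0s2, Pde3b and Hilpda also stayed below both controls in that library, whereas Adrb3, at 137 CPM, lay between them and Aqp7, at 138 CPM, lay above both. Per 1000 adipocyte marker counts the 2 libraries were close for Pnpla2, at 41.6 and 46.8 beside 42.2 and 41.8 in Mof+/+, and for Mgll, at 48.4 and 46.3 beside 46.5 and 49.2. They stayed apart for Lipe (33.6 and 64.9), Abhd5 (2.77 and 5.96) and Hilpda (0.838 and 1.53). On that scale 1 gene, Pde3b, did not overlap between the genotypes on HFD, at 2.19 and 2.88 against 3.76 and 3.36, and 49.2% of the genes tested were lower without overlap. Thermogenic adipocyte markers, some of which skeletal muscle also expresses, summed to 1137 and 348 CPM in HFD Mof+/- against 30.9 and 37.7 CPM in HFD Mof+/+. None of the 4 tested of these 6 markers passed, all were higher, and their part in the values was not tested. Of 10 genes for droplet partners and other lipases, 8 were higher and 2 lower in HFD Mof+/-, and none passed. Among them the droplet protein gene Plin5 had a log2 fold change of 3.56 ± 0.63 (edgeR adjusted p = 0.278). The lysosomal lipase gene Lipa was lower without overlap, at 55.5 and 150 CPM against 402 and 514 CPM in HFD Mof+/+.

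Each of these 2 libraries alone gave opposite calls. Without the first, 6 genes passed as higher in Mof+/-, with log2 fold changes of 0.99 for Pnpla2, 1.69 for Lipe, 0.79 for Mgll, 0.95 for Abhd5, 1.22 for G0s2 and 1.43 for Hilpda, against 27.2% of all genes tested. Without the second, Abhd5 (-1.34) and Pde3b (-1.05) passed as lower, against 47.9% of all genes. In both cases the single library left in the group was assumed to vary like the other group.

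The interaction of genotype and diet, fitted to all 10 libraries, was past the threshold for none of the 9 genes and for 0.0881% of 15897 genes. No member had an unadjusted p under 0.05, and DESeq2 called none of them. The estimates lay between -0.30 ± 0.87 for Hilpda and 0.49 ± 0.72 for Lipe, with 95% intervals as wide as -2.21 to 1.61 for Hilpda. For Adrb3 the interval ran from -1.15 to 1.03, and a difference within it was not detectable with these libraries.

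**Figure D5:**
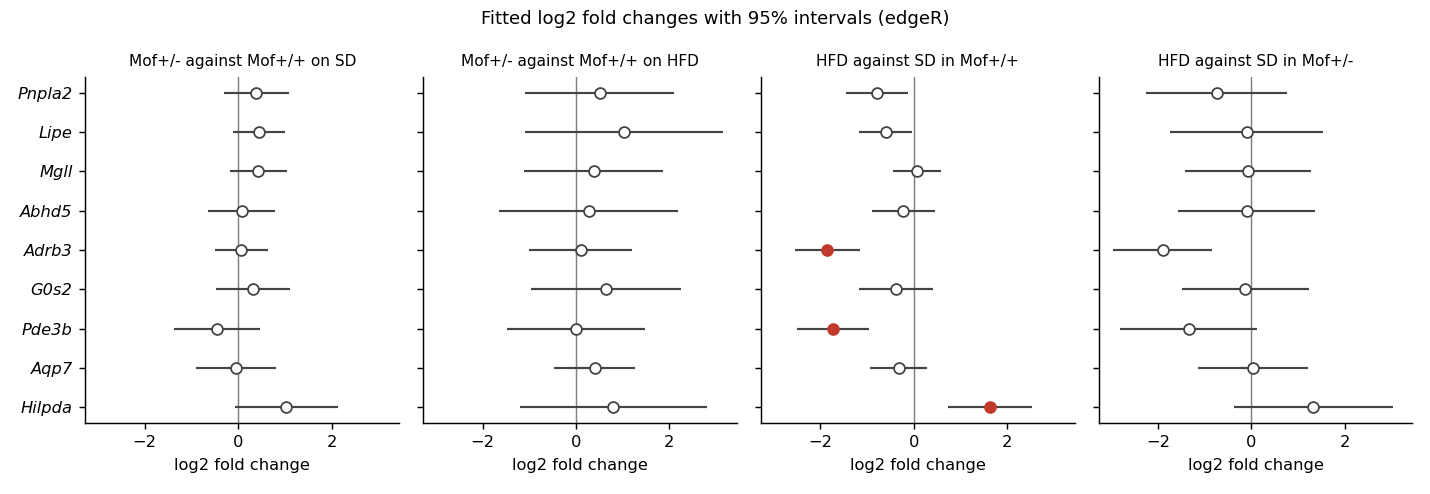
Log2 fold changes of the 9 lipolysis genes in 4 comparisons, with 95% intervals from edgeR and filled red points for an adjusted p under 0.05. Adrb3, Pde3b and Hilpda are filled in the comparison of diets in Mof+/+ mice, and no point is filled in the other 3 panels.

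Upstream of the lipases, a list of receptor genes, the G protein subunit Gnas, adenylyl cyclases, PKA subunits, a PKA anchor and phosphodiesterases held 16 genes. In the diet comparison in Mof+/+ mice 2 of the 16 passed, both lower, and none higher, beside 9.75% of all genes tested. These were the adenylyl cyclases Adcy4 (log2 fold change -1.84, edgeR adjusted p = 0.0451) and Adcy6 (-0.88, adjusted p = 0.0413), and the median of the 16 was -0.28 beside -0.04 over all genes. On SD, Adcy4 was also lower in Mof+/- (-2.20, adjusted p = 0.0436), the only one of the 16 to pass, beside 5.24% of all genes tested. Endothelial markers moved with Adcy4, with 2 of 6 passing as lower on HFD in Mof+/+ and 4 of 6 as lower in SD Mof+/-, and their part in it was not tested. None of the 16 passed in the other comparisons.

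Among 10 droplet partners and other lipases, 3 passed as lower and 2 as higher on HFD in Mof+/+ mice, beside 9.75% of all genes tested. Lower were the carboxylesterases Ces1d (log2 fold change -1.55) and Ces1f (-1.24) and the patatin-like Pnpla3 (-2.24). Higher were Lipa, the lysosomal acid lipase (2.42), and Lpl, the lipoprotein lipase that releases fatty acids from circulating triglyceride (1.23). Macrophage markers rose in the same comparison, 6 of 8 passing as higher, and their part in the change of Lipa was not tested. The droplet coat protein Plin1, which holds Abhd5 until PKA acts, was at 1458 to 2007 CPM in SD Mof+/+ and at 1101 and 675 CPM on HFD (-0.77 ± 0.29, adjusted p = 0.135).

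On SD, 3 of these 10 passed as higher and 1 as lower in Mof+/-, beside 5.24% of all genes tested. With the libraries grouped by the headings inside the files no gene was called in this comparison, so these calls and that of Adcy4 ended, and 19, 35 and 74 genes in all were called without the first, second and last SD Mof+/+ library and 17 without the second SD Mof+/- library, against 727 with all. Mesothelial markers moved in the same comparison, at 170 to 349 CPM in SD Mof+/- against 23.8 to 59.1 CPM in SD Mof+/+, with 4 of 6 passing as higher, and their part was not tested. Lpl was at 10278 to 22870 CPM in Mof+/- against 4195 to 5380 CPM in Mof+/+ (log2 fold change 2.13, edgeR adjusted p = 0.0301), Fabp4 differed by 1.79 and the droplet protein Cidec by 1.61, and Pnpla3 was lower by a log2 fold change of -2.10. Plin1 differed by 0.42 ± 0.27 and did not pass. On HFD, Lpl was at 10602 and 10594 CPM in Mof+/+ and at 4297 and 7502 CPM in Mof+/- libraries, without overlap but not past the test (-0.54 ± 1.17, adjusted p = 0.913). Its interaction of genotype and diet was -2.76 ± 0.69 (adjusted p = 0.167).

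Across the 10 libraries the 9 genes mostly varied together. The Pearson correlation of log2 CPM was positive in 33 of 36 pairs, with a median of 0.57. Mgll and G0s2 were the most alike (r = 0.93), and Pnpla2 with Lipe and Adrb3 with Pde3b had r = 0.90 and 0.88. The negative pairs all involved Hilpda, with Adrb3 (-0.60), Pde3b (-0.42) and Pnpla2 (-0.077). Without the first HFD Mof+/- library the median was 0.32 and 5 pairs were negative, Mgll with Adrb3 and with Pde3b (both -0.28) among them, and Adrb3 with Pde3b stayed at 0.84. The libraries share depth, composition and length trends, so these values describe the 10 libraries and carry no test.

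The genes whose CPM pattern was closest to each of the 9, among genes with a mean of at least 50 counts, were named by their Pearson r over the 10 libraries. For Adrb3 these were Cyp2e1 (r = 0.96), Slc16a9 and Slc1a3 (both 0.94), and for Pde3b the kinase gene Sik2 (0.99), Gphn (0.99) and Maob (0.98). Cyp2e1, a cytochrome P450 gene, was at 1392 to 3315 CPM in the 6 SD libraries and at 16.1 to 74.6 CPM in the 4 HFD libraries. For Hilpda they were Acaa2, a thiolase of fatty acid oxidation, Tmem45b and Arxes1 (0.95 to 0.96).

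For the lipases, the closest were Msrb3, Mrpl9 and Csad for Pnpla2 (all 0.96), Sephs2, the adipocyte transcription factor gene Cebpa and Rgcc for Lipe (0.96 to 0.98), and Sgta, Tbc1d17 and Prkaca, the catalytic subunit of PKA, for Mgll (0.95 to 0.96). Rgcc also led for G0s2 (0.98), before Cd320 and Cd81. Abhd5 had Alg2, Pcbp3 and Galnt4 (0.95 to 0.96). Aqp7 had the loosest likeness, with Zfp979 and Fam189a2 (0.90 and 0.89) and Hnrnpl (0.87), and no gene exceeded 0.9 with it, whereas 154 did with Pde3b.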

How the data were processed

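Poly(A) mRNA-seq libraries of visceral WAT were sequenced by the authors, aligned with STAR to GRCm38 (mm10) and counted per gene with featureCounts (Subread 1.5.0-p1). The deposited values are raw counts per Ensembl gene, 1 table per library, with no normalization. The tools come from the submitters' processing notes. Versions were dropped from the Ensembl IDs, and 47224 of 47937 matched a symbol in GENCODE M21.

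Groups followed the sample labels. Each pair of groups was fitted with edgeR 4.0.16 (R 4.3.3; filterByExpr, TMM, quasi-likelihood test), p-values were adjusted by Benjamini-Hochberg over all genes tested at a threshold of 0.05, and the interaction was fitted on all 10 libraries. The code was tested on simulated data. Alternatives were DESeq2 1.42.0, other scalings and filters, 1 fit of all libraries, a replicate block, a length correction, grouping by column heading and leaving out each library. TPM used merged exon lengths. The exact intervals of single values cover counting error only, whereas edgeR's intervals of fold changes include the spread between libraries, and 3 counts equalled 0.175 to 2.87 CPM.

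The 9 genes and the lists were chosen with earlier results of these data known. All 9 were named, with Adrb1, Plin1 and Lpl, the listed pathway genes that passed, and the 3 genes with the highest Pearson r to each of the 9. The rule also names 1 gene that is not reported here. Replicate numbers did not pair the samples (correlations of same-numbered deviations from -0.0783 to 0.0449).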

Additional observations from a re-analysis of the deposited data

How the results depend on the processing

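Alternatives kept the direction of Adrb3, Pde3b and Hilpda between the diets in Mof+/+ mice, and no member passed in the interaction under any alternative tried. The number of members called changed as follows. Scaling to adipocyte markers gave 5 for genotype on SD (35.0% of all genes called). For diet in Mof+/+, DESeq2 gave 5 (20.0% of all genes), 1 fit of all libraries 1 (0.893%), column headings 0 (0%), and the length correction (8.14%) and the replicate block (9.77%) each 2, without Hilpda. For diet in Mof+/-, DESeq2 gave 1 (2.95%), 1 fit of all libraries 1 (1.19%) and the replicate block 2 (1.80%), although the numbers share no pairing. Leaving out 1 library gave 0 to 6 for genotype on HFD (0.653 to 47.9% of all genes called, 27.2% with the 6), 0 to 3 for diet in Mof+/+ (0.384 to 14.9%) and 0 to 1 for diet in Mof+/- (0 to 13.8%). The cause of these changes was not tested.

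Signs of log2 fold changes turned under these settings. Scaled to adipocyte markers, genotype on SD gave Pnpla2 -0.78, Lipe -0.73, Mgll -0.78, Abhd5 -1.08, Adrb3 -1.09, G0s2 -0.89 and Hilpda -0.18, genotype on HFD Mgll -0.016, Abhd5 -0.32, Adrb3 -0.17 and Pde3b -0.48, diet in Mof+/- Pnpla2 0.29, Lipe 0.80, Mgll 1.04, Abhd5 0.74 and G0s2 0.89, and the interaction Mgll 0.76, Adrb3 0.91 and Hilpda 0.43. Grouped by column heading, genotype on SD gave Mgll -0.29, Abhd5 -0.094, G0s2 -0.53 and Pde3b 0.082, diet in Mof+/+ Mgll -0.30, diet in Mof+/- Lipe 0.086, Mgll 0.29 and G0s2 0.32, and the interaction Mgll 0.57, Pde3b -0.16 and Hilpda 0.68. Without replicate 3 of both SD groups, genotype on SD gave Abhd5 -0.0062 and G0s2 -0.15, diet in Mof+/+ Mgll -0.082, diet in Mof+/- Mgll 0.11 and G0s2 0.12, and the interaction Mgll 0.17. Corrected for transcript length, genotype on SD gave Adrb3 -0.00027, G0s2 -0.97, Pde3b 0.033 and Hilpda -0.023, and the interaction Abhd5 -0.094 and Hilpda 0.27.

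Pde3b between genotypes on HFD, at 0.0044, became -0.0082 in DESeq2, -0.0013 with its size factors, -0.021 without mitochondrial and muscle genes in TMM, -0.025 without a filter, -0.057 with at least 10 counts and -0.063 in 1 fit of all libraries. The interaction of Adrb3 became 0.064, 0.059 and 0.039 in the first 3 of these and 0.035 with at least 10 counts, where Aqp7 between the diets in Mof+/- was -0.015. The replicate block gave Abhd5 -0.11 and Pde3b -0.18 for genotype on HFD, Mgll -0.079 and 0.00054 for diet in Mof+/+ and Mof+/-, and Pnpla2 -0.15 and Abhd5 -0.045 for the interaction.

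Leaving out 1 library, genotype on SD ranged from -0.085 to 0.20 for Adrb3, -0.33 to 0.28 for Aqp7 and -0.16 to 0.31 for Abhd5. Genotype on HFD ranged from -0.28 to 0.58 for Adrb3, -1.05 to 0.53 for Pde3b, -0.36 to 0.99 for Pnpla2, -0.44 to 1.69 for Lipe, -0.33 to 0.79 for Mgll, -1.34 to 0.95 for Abhd5, -0.51 to 1.22 for G0s2 and -0.62 to 1.43 for Hilpda. Diet in Mof+/+ ranged from -0.45 to 0.0082 for Abhd5 and -0.082 to 0.14 for Mgll. Diet in Mof+/- ranged from -0.31 to 0.33 for Aqp7, -1.69 to 0.60 for Abhd5, -0.76 to 0.36 for Mgll, -1.25 to 0.48 for G0s2, -1.54 to 0.59 for Lipe and -0.071 to 1.98 for Hilpda. The interaction ranged from -1.48 to 0.87 for Abhd5, -0.40 to 0.46 for Adrb3, -0.81 to 0.60 for Pnpla2, -0.88 to 0.91 for G0s2, -0.83 to 0.35 for Mgll, -1.72 to 0.39 for Hilpda, -0.95 to 1.24 for Lipe and -0.68 to 0.97 for Pde3b. Over all genes tested, genotype on SD called 727 genes with edgeR, 2211 with DESeq2, 1840 without a filter, 194 in 1 fit, 428 with the block, 470 after length correction, 0 by column heading and 17 to 1026 without 1 library. Diet in Mof+/+ called 1457 with edgeR, 2990 with DESeq2, 142 in 1 fit, 0 by column heading and 64 to 2230 without 1 library.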
